A study of Mus musculus with 4 samples.

Results

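Tie receptors and genes shared between endothelium and blood stem cells were followed in mouse LSK cells, the bone marrow fraction that lacks lineage antigens and carries Sca-1 and c-Kit. The set holds 9 genes, chosen by name from the expression table of 46517 genes with earlier results of these data known. They are the receptors Tek, Tie1 and Kdr, the ligand gene Angpt1 and the co-receptor gene Eng. The rest are the surface and junction genes Emcn, Cdh5, Pecam1 and Esam. All 9 have a row in the table. Setd2D/D mice, which the series calls Setd2 knockout, gave 2 libraries, and Setd2f/f mice, called wild-type for Setd2, gave 2, all C57BL/6 and 8 to 10 weeks old per the labels. Which exons D lacks, what removed them and how many mice were pooled is not given in the sources used here. Nothing in the labels says that the replicates are separate animals, so a p-value measures library spread only, and that spread may be technical. Setd2 is the methyltransferase that trimethylates lysine 36 of histone H3 over transcribed genes, and the study's title concerns its part in quiescence and differentiation of adult stem cells.

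Tek (also called Tie2) is the receptor tyrosine kinase for the angiopoietins. Angiopoietin-1, encoded by Angpt1, activates it, and signalling through Tek is known for holding haematopoietic stem cells quiescent in the marrow niche and for keeping blood vessels stable. Tie1 is the related orphan receptor that pairs with Tek on the cell surface and modulates its signalling. Blood and endothelium arise from common precursors in the embryo, and stem cells keep several surface proteins of endothelium, among them endomucin (Emcn), PECAM-1, ESAM and endoglin. VE-cadherin (Cdh5) and the VEGF receptor 2 (Kdr) are in the adult largely endothelial.

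Between 14360 and 14610 genes reached 1 TPM, a share of a library's transcripts that is corrected for gene length, in each library. The tables give no read counts, so the depth behind a value is unknown. Setd2D/D replicate 1 stood apart: across the 14755 genes tested its Pearson correlation was 0.912 with Setd2D/D replicate 2 and 0.910 and 0.913 with the Setd2f/f libraries, which correlated at 0.959 with each other. Genes are not independent replicates, and these values only describe the libraries. For the members, results that change without that library are given both ways. Setd2 itself was at 43.4 and 49.5 TPM in Setd2D/D and at 78.9 and 68.0 TPM in Setd2f/f. It was lower in both Setd2D/D libraries (limma change -0.65, adjusted p = 0.329, authors' deposited FDR 5.84e-06), although the value covers the whole gene and would still count transcripts that lack only the deleted part. LSK markers were present in every library. Kit was at 301 and 285 TPM in Setd2D/D and 224 and 249 in Setd2f/f, and Ly6a, which encodes Sca-1, at 46.5 and 80.6 TPM in Setd2D/D and 128 and 124 in Setd2f/f.

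**Figure D1:**
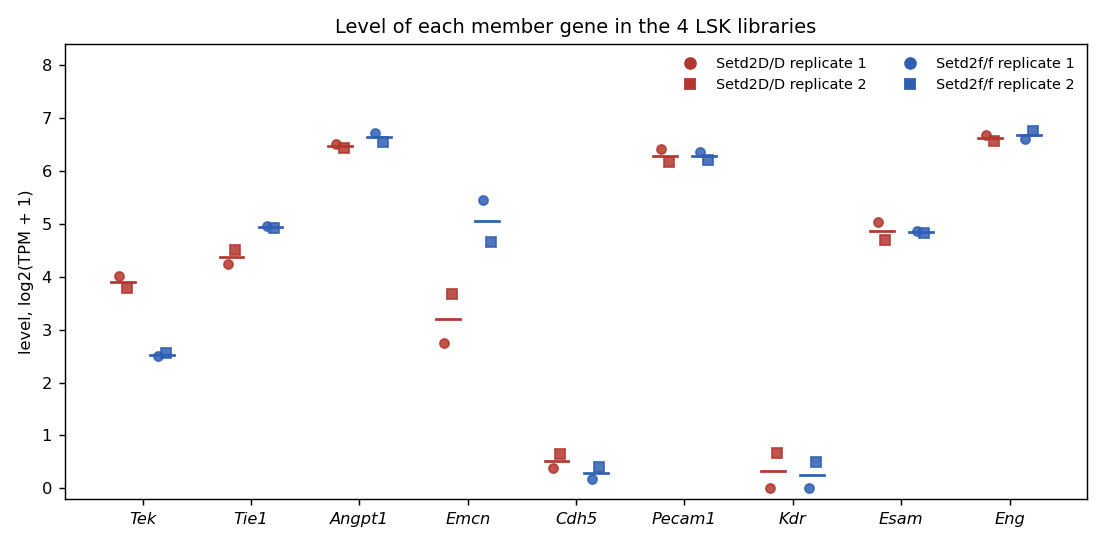
Level of each of the 9 genes as log2(TPM + 1), with a point for each library (circles replicate 1, squares replicate 2) and a bar at the mean of each genotype. Tek lies higher in both Setd2D/D libraries, Tie1 and Emcn lie lower, and Cdh5 and Kdr stay below 1 TPM in all 4 libraries.

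The 2 Tie receptors differed between genotypes in opposite directions. Tek averaged 14.0 ± 1.67 TPM in Setd2D/D and 4.76 ± 0.170 TPM in Setd2f/f (SD, n = 2 each), and Tie1 averaged 19.8 ± 2.65 TPM in Setd2D/D and 29.7 ± 0.622 TPM in Setd2f/f. Emcn, a sialomucin of stem cells and veins, averaged 8.69 ± 4.26 TPM in Setd2D/D and 33.6 ± 13.1 TPM in Setd2f/f. The ligand gene Angpt1 and the surface genes Pecam1, Esam and Eng had Setd2D/D to Setd2f/f ratios of means between 0.890 and 1.02. In the authors' deposited table, Tek was past a false discovery rate (FDR) of 0.05 as higher, and Tie1 and Emcn as lower. By limma with Benjamini-Hochberg adjustment over all genes, 0 of the 9 passed. In bulk samples such as these, fewer cells of a type and less RNA per cell cannot be told apart.

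Tek (GRCm38 chromosome 4, 94739289 to 94874976, plus strand, 4712 nt of merged exon) was at 15.2 and 12.9 TPM in Setd2D/D, against 4.64 and 4.88 TPM in Setd2f/f. The genotypes did not overlap, and the lower Setd2D/D value was above both Setd2f/f values by more than the spread within either genotype. The ratio of mean TPM was 2.95. On the log2(TPM + 1) scale, which understates changes of low genes, the limma change was 1.38 (SE 0.25, 95% interval 0.74 to 2.02), with an unadjusted p of 0.00283 and an adjusted p of 0.255. It ranked 163 by p among the 14755 genes tested. The authors' deposited table gives Tek a fold change of 2.68, a log2 change of 1.42 and an FDR of 7.46e-07. Without Setd2D/D replicate 1 the limma change was 1.27 (adjusted p = 0.383).

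Tie1 (chromosome 4, 118471191 to 118490061, minus strand, 4917 nt of merged exon) was at 17.9 and 21.7 TPM in Setd2D/D and at 30.2 and 29.3 TPM in Setd2f/f. Both Setd2D/D libraries lay below both Setd2f/f libraries. The ratio of means was 0.665, the limma change -0.57 (SE 0.18, 95% interval -1.03 to -0.11), the unadjusted p 0.0254 and the adjusted p 0.407. The authors' deposited table has Tie1 at a log2 change of -0.55 (FDR 0.00571). Tie1 missed an unadjusted 0.05 by limma without Setd2D/D replicate 1 (change -0.44, unadjusted p 0.0638, adjusted p = 0.455), and also without Setd2f/f replicate 1 or 2 (changes -0.55 and -0.59, unadjusted p 0.131 and 0.113).

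Because TPM is per length, the receptors can be set against each other within a library. Tek transcripts came to 0.850 and 0.594 of the Tie1 level in Setd2D/D and to 0.154 and 0.167 in Setd2f/f. The ratio averaged 0.722 ± 0.181 in Setd2D/D and 0.160 ± 0.00906 in Setd2f/f (SD, n = 2 each). The genotypes did not overlap, and Tie1 was the more abundant of the pair in all 4 libraries. With 2 libraries against 2, an exact 2-sided permutation test cannot go below p = 0.33, so these ratios carry no test.

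**Figure D2:**
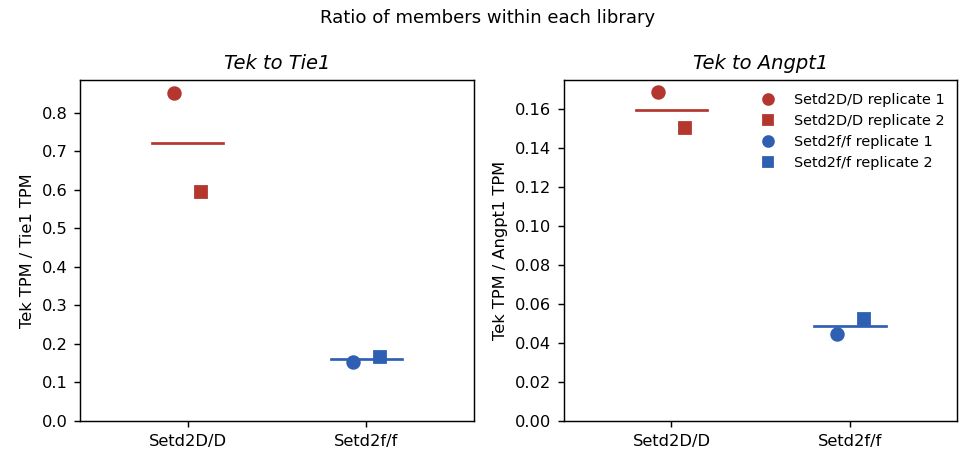
Ratio of Tek to Tie1 (left) and of Tek to Angpt1 (right), each the quotient of TPM values within a library, with a point per library and a bar at the genotype mean; both axes start at 0. Tek to Tie1 is 0.594 or more in Setd2D/D and 0.167 or less in Setd2f/f, and Tek to Angpt1 separates the genotypes in the same way.

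Angpt1 (chromosome 15, 42424723 to 42676977, minus strand) was among the most abundant members, at 90.2 and 85.5 TPM in Setd2D/D and 104 and 93.1 TPM in Setd2f/f. Both Setd2D/D values were below both Setd2f/f values, and the genotype means of 87.9 ± 3.31 TPM in Setd2D/D and 98.8 ± 8.02 TPM in Setd2f/f (SD, n = 2 each) were less than 2 SD of Setd2f/f apart. The limma change was -0.16 (95% interval -0.48 to 0.15, adjusted p = 0.636), and the authors' deposited table gives -0.12 with an FDR of 0.834. An antisense model, Gm17473, overlaps the gene on the other strand and was at 0 and 1.2 TPM in Setd2D/D and at 0 in both Setd2f/f libraries. The ratio of Tek to Angpt1, receptor to ligand, was 0.169 and 0.15 in Setd2D/D and 0.0444 and 0.0524 in Setd2f/f. The ligand gene thus exceeded the receptor gene in every library, and by less in both Setd2D/D libraries.

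Emcn (chromosome 3, 137341067 to 137432185, plus strand, 5409 nt of merged exon) had the largest change of the 9 genes, both by limma and as the authors' deposited table gives it. It was at 5.68 and 11.7 TPM in Setd2D/D and at 42.9 and 24.3 TPM in Setd2f/f. The genotypes did not overlap, but in each genotype the replicates lay far apart, with SDs of 4.26 and 13.1 TPM. The ratio of means was 0.259, the limma change -1.86 (SE 0.43, 95% interval -2.98 to -0.73), the unadjusted p 0.00859 and the adjusted p 0.329. The authors' deposited table has Emcn at a log2 change of -1.73 (FDR 2.50e-07). Without Setd2D/D replicate 1 the limma change was -1.39 (adjusted p = 0.417), and without Setd2f/f replicate 1 it was -1.46, with an unadjusted p of 0.0892 (adjusted p = 0.949).

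The bases before the start sites of Tek and Emcn are shown because these are the 2 members with the largest changes, in opposite directions. They are from RefSeq on GRCm38.p6, plus strand, 5′ to 3′, ending where the annotated gene begins, and span chr4:94739039-94739288 and chr3:137340828-137341066. Capitals mark AGGAAG or its reverse complement CTTCCT, a form of the letters that ETS factors such as Erg and Fli1 bind. Other forms were not searched, so a window without capitals may still hold them.
Tek: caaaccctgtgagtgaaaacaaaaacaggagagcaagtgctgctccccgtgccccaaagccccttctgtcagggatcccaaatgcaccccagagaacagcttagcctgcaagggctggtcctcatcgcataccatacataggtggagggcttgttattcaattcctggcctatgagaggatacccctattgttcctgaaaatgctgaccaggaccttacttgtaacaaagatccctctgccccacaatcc
Emcn: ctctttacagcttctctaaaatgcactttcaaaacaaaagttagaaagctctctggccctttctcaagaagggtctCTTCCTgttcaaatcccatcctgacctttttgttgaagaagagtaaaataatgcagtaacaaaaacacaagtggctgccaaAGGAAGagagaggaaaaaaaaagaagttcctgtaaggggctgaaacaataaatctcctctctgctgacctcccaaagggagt
Emcn holds the letters at 2 places, starting at positions -174 and -93 from the RefSeq start site, and Tek at 0. Of the 9 members 5 had a window in the RefSeq table, and in the 250 bases before the start the letters also occur in Tie1 and Eng but not in Kdr. Over all 32851 windows of that length, 29.5% hold them. The GATA letters AGATAA (9.99% of windows), the E-box CAGCTG (13.0%) and the RUNX letters TGTGGT (14.0%), searched on both strands, are in none of the 5 windows. A match describes letters only and is no evidence of binding.

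Pecam1, the immunoglobulin-type adhesion receptor CD31 (chromosome 11, 106654217 to 106750628), was at 84.6 and 70.7 TPM in Setd2D/D and 81.2 and 73.1 TPM in Setd2f/f. The ranges overlapped, and the limma change was 0.01 with a 95% interval of -0.37 to 0.38 (adjusted p = 0.994). Esam, an endothelial cell-selective adhesion molecule that also marks stem cells (chromosome 9, 37528078 to 37538319), was at 31.7 and 25.1 TPM in Setd2D/D and 28.1 and 27.5 TPM in Setd2f/f. Its limma change was 0.02 with an interval of -0.46 to 0.50 (adjusted p = 0.982). The Setd2f/f values lay inside the span of the Setd2D/D values. Pecam1 stood at 2.67 and 2.82 times Esam in Setd2D/D and 2.89 and 2.66 times in Setd2f/f, so the balance of these adhesion genes overlapped between genotypes.

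Eng, the endoglin co-receptor for BMP and TGF-beta ligands (chromosome 2, 32646595 to 32682669), was the most abundant member, at 102 and 93.8 TPM in Setd2D/D and 96.4 and 107 TPM in Setd2f/f. Its limma change was -0.05 with an interval of -0.36 to 0.26 (adjusted p = 0.903), and the authors' deposited table gives -0.01 with an FDR of 0.995. The annotated span of Eng overlaps Fpgs on the opposite strand. Whether strand was kept in the libraries is not given in the sources used here, so reads from the shared part cannot be assigned with certainty. The intervals of Pecam1, Esam and Eng include changes of up to 0.50 in size on the log2 scale, and a p that misses the threshold does not show that the genotypes are alike.

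Cdh5 and Kdr, the endothelial junction and VEGF receptor genes, were near the lower end of what was measured. Cdh5 was at 0.300 and 0.560 TPM in Setd2D/D and 0.130 and 0.320 TPM in Setd2f/f. Kdr was listed at 0 and 0.590 TPM in Setd2D/D and at 0 and 0.420 TPM in Setd2f/f. Neither reached 1 TPM in any library, so they are outside the 7 members tested, and the authors' deposited table gives them FDRs of 0.888 and 0.938. Kdr came to 0 and 0.0459 of the Tek level in Setd2D/D and to 0 and 0.0861 in Setd2f/f. Emcn stood at 18.9 and 20.9 times Cdh5 in Setd2D/D and at 330 and 76.0 times in Setd2f/f, ratios that rest on Cdh5 values close to 0.

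The order of the levels differed between genotypes for Emcn, Esam and Tek. In Setd2D/D the mean TPM ran from Eng through Angpt1, Pecam1, Esam, Tie1, Tek, Emcn and Cdh5 to Kdr. Only Cdh5 and Kdr, the last pair, had overlapping ranges there. In Setd2f/f the order was Eng, Angpt1, Pecam1, Emcn, Tie1, Esam, Tek, Cdh5 and Kdr. Neighbouring ranges overlapped between Eng and Angpt1, between Emcn and Tie1, and between Cdh5 and Kdr. The range of Emcn there (24.3 to 42.9 TPM) also held that of Esam (27.5 to 28.1 TPM). In Setd2f/f replicate 2 Emcn lay below both Tie1 and Esam. Emcn lay at the 33.2 percentile of the tested genes' mean TPM in Setd2D/D and at 64.3 in Setd2f/f, and Tek at 43.0 in Setd2D/D and 23.7 in Setd2f/f.

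**Figure D3:**
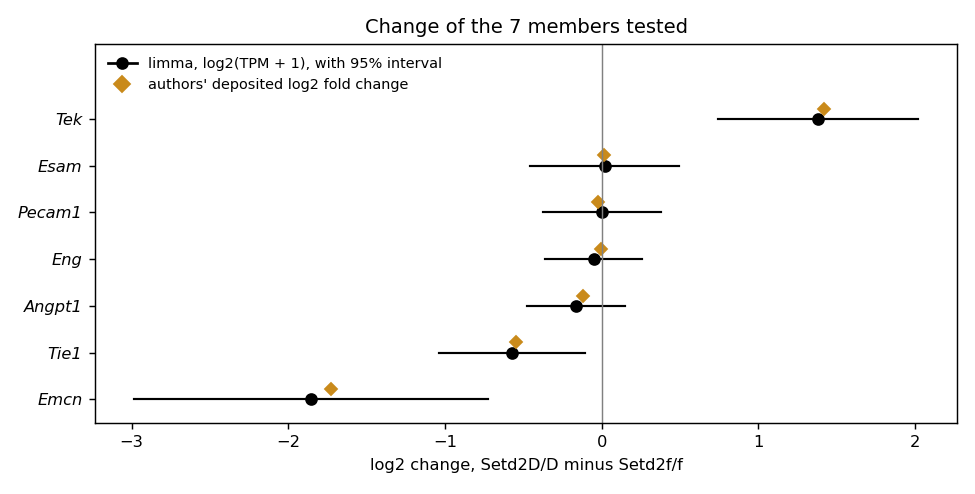
Change of the 7 tested members on the log2 scale, Setd2D/D minus Setd2f/f. Black points and lines are limma changes of log2(TPM + 1) with 95% intervals, and diamonds are the log2 fold changes of the authors' deposited table. The intervals of Tek, Tie1 and Emcn do not reach 0, while those of Angpt1, Pecam1, Esam and Eng do.

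Read over the whole set, 7 of the 9 members passed the filter of 1 TPM in at least 2 libraries, all 7 with at least 1 TPM in every library. By limma 0 passed an adjusted p of 0.05, as did 0.0678% of all genes tested (10 of 14755). An unadjusted p under 0.05 was reached by 3 of the 7, against 11.2% of all genes, with 1 higher (background 4.17%) and 2 lower (background 6.99%). The libraries of the genotypes did not overlap for 1 member that was higher, where 16.8% of all genes did so, and for 3 that were lower, where 27.6% did so. Past the FDR of the authors' deposited table were 3 of the 9, against 3.15% of its 23955 genes. Of these 1 was higher (background 1.51%) and 2 were lower (background 1.64%), and Tek and Emcn also changed by at least 1 in absolute log2, as did 1.49% of its genes. The median change of the 7 tested members was -0.05, beside -0.06 over all tested genes, and that of all 9 members was 0.01 (-0.12 without Setd2D/D replicate 1). The members were chosen with earlier results of these data known, so the counts and shares above describe them and are no test. The 23955 genes of the authors' deposited table also include genes below the filter of 1 TPM.

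The other genes of the angiopoietin-Tie pathway were read as a list of 24, of which 20 were tested. By limma 0 passed. The authors' deposited table calls 0 higher and 1 lower. Over all its genes 1.51% were higher and 1.64% lower past the FDR, which is the background for each list below. The median change was -0.14, beside -0.06 over all tested genes. The gene past the FDR was Dok2, an adaptor that binds activated Tek, at 32.0 and 30.6 TPM in Setd2D/D and 63.1 and 74.2 TPM in Setd2f/f (authors' deposited log2 change -1.001, FDR 2.69e-06, limma adjusted p = 0.176). Foxo3, a forkhead factor that Akt inhibits, was at 37.3 and 40.1 TPM in Setd2D/D and 56.9 and 47.7 TPM in Setd2f/f (limma adjusted p = 0.436). Grb14, an adaptor of receptor kinases, was at 2.59 and 1.84 TPM in Setd2D/D and 0.700 and 0.220 TPM in Setd2f/f (limma adjusted p = 0.446). Grb14 passed the filter only through Setd2D/D, so the filter fixed its direction. The other ligand genes were scarce. Angpt2 was at 0.0700 and 0.210 TPM in Setd2D/D and 0.930 and 1.39 TPM in Setd2f/f, and Angpt4 did not exceed 0.490 TPM. Ptprb, the endothelial phosphatase that acts on Tek, did not exceed 0.0400 TPM. Akt1, the kinase downstream of Tek, was at 212 and 228 TPM in Setd2D/D and 233 and 226 TPM in Setd2f/f.

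Of the VEGF receptor pathway 22 of 23 listed genes were in the table and 15 were tested, with 0 past limma, 0 higher and 1 lower in the authors' deposited table, and a median change of -0.07. The lower gene was Plcg1, the phospholipase that VEGF receptors activate, at 58.9 and 43.3 TPM in Setd2D/D and 89.5 and 74.4 TPM in Setd2f/f (authors' deposited FDR 1.01e-05, limma adjusted p = 0.396). Vegfc was at 1.33 and 1.54 TPM in Setd2D/D and 4.11 and 3.09 TPM in Setd2f/f, and Vegfa at 28.8 and 22.1 TPM in Setd2D/D and 20.8 and 16.6 TPM in Setd2f/f (limma adjusted p = 0.453 and 0.542). The other VEGF receptors Flt1 and Flt4 did not exceed 0.580 and 0.770 TPM.

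Of the endoglin and BMP receptor partners 25 were in the table and 20 were tested, with 0 past limma, 1 higher and 0 lower in the authors' deposited table, and a median change of -0.25. Tgfbr3, the betaglycan co-receptor related to endoglin, was at 14.8 and 15.01 TPM in Setd2D/D and 5.86 and 6.38 TPM in Setd2f/f (authors' deposited log2 change 1.04, FDR 1.11e-05, limma adjusted p = 0.276). Bmpr1a, a type I BMP receptor, was at 3.03 and 1.87 TPM in Setd2D/D and 0.140 and 0.130 TPM in Setd2f/f (authors' deposited FDR 0.0765, limma adjusted p = 0.380). Bmpr1a passed the filter only through Setd2D/D, so the filter fixed its direction. Smad6, an inhibitor of BMP signalling, was at 0.940 and 1.43 TPM in Setd2D/D and 3.46 and 3.58 TPM in Setd2f/f (limma adjusted p = 0.423).

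Of the junctional adhesion and catenin genes 21 of 22 were in the table and 18 were tested, with 0 past limma, 2 higher and 0 lower in the authors' deposited table, and a median change of -0.01. Both genes past the FDR belong to tight junctions. Cldn5, the claudin of endothelium, was at 13.4 and 8.68 TPM in Setd2D/D and 0.750 and 1.61 TPM in Setd2f/f (authors' deposited log2 change 3.25, FDR 0.000236, limma adjusted p = 0.226). Tjp1, the scaffold ZO-1, was at 18 and 8.54 TPM in Setd2D/D and 3.04 and 2.87 TPM in Setd2f/f (authors' deposited log2 change 1.75, FDR 3.05e-12, limma adjusted p = 0.329). Ocln, the tight junction protein occludin, was at 3.32 and 1.93 TPM in Setd2D/D and 0.26 and 0.33 TPM in Setd2f/f, with an authors' deposited FDR of 0.920. For these 3 genes Setd2D/D replicate 1 was the higher library. Cldn5 and Tjp1 were higher in Setd2D/D without overlap, as were 16.8% of all tested genes. Ocln passed the filter only through Setd2D/D, so the filter fixed its direction. Beta-catenin, Ctnnb1, which links cadherins to the cytoskeleton, was at 206 and 213 TPM in Setd2D/D and 217 and 227 TPM in Setd2f/f.

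Of 20 ETS, GATA and SCL-type factors of blood and endothelium 19 were tested, with 0 past limma, 0 past the FDR of the authors' deposited table and a median change of -0.10. An unadjusted limma p under 0.05 was reached by 5, all lower, where 6.99% of all genes were lower at that level. These were Runx1, Erg, Hoxa9, Lmo2 and Mef2c, of which only Erg is an ETS, GATA or SCL-type factor. Among them Erg, an ETS factor of stem cells and endothelium, was at 113 and 130 TPM in Setd2D/D and 170 and 157 TPM in Setd2f/f (limma adjusted p = 0.390). Runx1 was at 45.1 and 46.7 TPM in Setd2D/D and 62.8 and 65.9 TPM in Setd2f/f (limma adjusted p = 0.354), and Hoxa9, a homeobox factor of stem cells, at 83.5 and 74.9 TPM in Setd2D/D and 112 and 102 TPM in Setd2f/f (limma adjusted p = 0.394). Fli1, the other ETS factor named above, was at 34.1 and 52.0 TPM in Setd2D/D and 49.9 and 41.0 TPM in Setd2f/f, with overlapping ranges. Without Setd2D/D replicate 1 the unadjusted limma p of Erg was 0.0616, and without Setd2f/f replicate 1 those of Erg, Runx1 and Hoxa9 were 0.105, 0.0532 and 0.109, all above 0.05.

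Markers of endothelium were measured as a list of 26, of which 25 were in the table and 12 were tested. By limma 0 passed, the authors' deposited table calls 2 higher and 0 lower, and the median change was 0.02. The summed level was 918 and 783 TPM in Setd2D/D and 774 and 904 TPM in Setd2f/f, and without Adgrl4, which made up most of it, 347 and 335 TPM in Setd2D/D and 307 and 398 TPM in Setd2f/f. Of the 25 genes 3, Aplnr, Lyve1 and Mmrn2, were listed at 0 in every library, and 11 stayed below 1 TPM in every library. Those abundant in LSK cells were Adgrl4, at 448 to 570 TPM, Egfl7, at 213 to 274 TPM, and Icam2, at 51.1 to 80.4 TPM. The genes past the authors' deposited FDR were Cldn5 and Cyyr1, the second at 3.95 and 2.07 TPM in Setd2D/D and 0.350 and 0.820 TPM in Setd2f/f (FDR 0.00357). Vwf, von Willebrand factor of endothelium and platelets, was at 11.2 and 8.36 TPM in Setd2D/D and 4.09 and 4.75 TPM in Setd2f/f (limma adjusted p = 0.396). Stab1 was listed at 0 in both Setd2D/D libraries and at 2.05 and 2.89 TPM in Setd2f/f (limma adjusted p = 0.329). Robo4, a guidance receptor gene of endothelium and stem cells, was at 19.3 and 16.7 TPM in Setd2D/D and 19.3 and 20.4 TPM in Setd2f/f. Ecscr, an endothelial surface gene, was at 0.690 and 6.10 TPM in Setd2D/D and 9.19 and 6.88 TPM in Setd2f/f. Among the 12 tested markers the genotypes did not overlap for 4 that were higher and 3 that were lower. Over all tested genes 16.8% were higher and 27.6% lower without overlap. Stab1 passed the filter only through Setd2f/f, and Cyyr1 and Fabp4 only through Setd2D/D, so the filter fixed their directions. The part of endothelial transcripts in the members' levels was not tested.

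**Figure D4:**
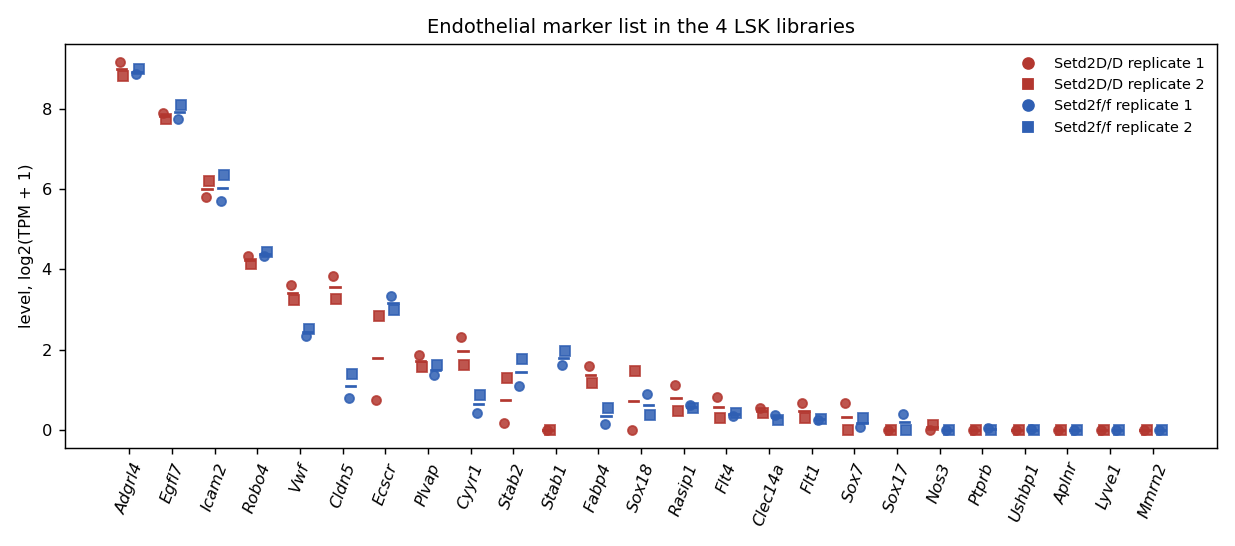
Each of the 25 measured endothelial markers as log2(TPM + 1), ordered by mean level, with a point per library and a bar at the genotype mean. Adgrl4, Egfl7 and Icam2 are high in all 4 libraries, and 11 genes stay below 1 TPM throughout. Of the 12 tested genes Cldn5, Vwf, Cyyr1 and Fabp4 lie higher and Stab1, Ecscr and Robo4 lower in both Setd2D/D libraries. Cyyr1, Fabp4 and Stab1 were tested only through the genotype where they are higher.

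Markers of other cells were read beside the members. Stromal markers (14 in the table, 2 tested, 12 below 1 TPM in every library) summed to 11.3 and 12.9 TPM in Setd2D/D and 28.4 and 23.2 TPM in Setd2f/f. Nearly all of this was Pdgfrb, a growth factor receptor gene, at 10.4 and 10.7 TPM in Setd2D/D and 25.1 and 20.9 TPM in Setd2f/f. Pdgfrb was the 1 of the list past the FDR of the authors' deposited table (lower, FDR 1.22e-10, limma adjusted p = 0.276). Bglap, the other gene tested, was at 0 in both Setd2D/D libraries and at 1.48 and 1.04 TPM in Setd2f/f. It passed the filter only through Setd2f/f, so its direction was fixed by the filter. Megakaryocyte and platelet markers (16 in the table, 12 tested) summed to 168 TPM in each Setd2D/D library and to 197 and 172 TPM in Setd2f/f, with 0 higher and 2 lower in the authors' deposited table, 0 past limma and a median change of 0.17. Pf4, platelet factor 4, was at 36.7 and 43.2 TPM in Setd2D/D and 13.3 and 11.2 TPM in Setd2f/f (limma adjusted p = 0.128, authors' deposited FDR 0.206). Itga2b, 1 of the 2 lower genes, was at 25.8 and 31.9 TPM in Setd2D/D and 46.2 and 39.0 TPM in Setd2f/f (authors' deposited FDR 0.024, limma adjusted p = 0.421).

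Erythroid markers were read as a list of 14, of which 13 were tested. They summed to 884 and 844 TPM in Setd2D/D and 579 and 385 TPM in Setd2f/f, with 8 higher and 0 lower in the authors' deposited table, 0 past limma and a median change of 1.09. Klf1, the erythroid Krüppel-like factor, was at 19.1 and 19.7 TPM in Setd2D/D and 4.55 and 4.60 TPM in Setd2f/f (authors' deposited FDR 5.79e-06, limma adjusted p = 0.128). Car1, an erythroid carbonic anhydrase, was at 132 and 155 TPM in Setd2D/D and 41.6 and 22.6 TPM in Setd2f/f (authors' deposited FDR 1.74e-47, limma adjusted p = 0.193), and Cldn13, a claudin of erythroid cells, at 10.3 and 8.25 TPM in Setd2D/D and 0.730 and 1.26 TPM in Setd2f/f (authors' deposited FDR 0.0178, limma adjusted p = 0.204). Granulocyte-monocyte markers (14, all tested) summed to 3513 and 5112 TPM in Setd2D/D and 2856 and 3373 TPM in Setd2f/f, with 5 higher and 1 lower in the authors' deposited table, 0 past limma and a median change of 0.15. Among them the granule genes Mpo and Elane averaged 1652 ± 319 and 403 ± 70.05 TPM in Setd2D/D and 879 ± 89.9 and 191 ± 31.8 TPM in Setd2f/f, and the receptor gene Csf3r averaged 91.0 ± 13.6 TPM in Setd2D/D and 147 ± 10.8 TPM in Setd2f/f (SD, n = 2 each). The part of these lineage markers in the level of Tek was not tested.

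The summed B lineage markers had the same order over the 4 libraries as Emcn, as did 5 of the 12 taken singly. Genes in that order are lower without overlap, as were 27.6% of all tested genes. The share of all genes in that exact order was not counted. The 12 markers, all tested, summed to 237 and 310 TPM in Setd2D/D and to 603 and 332 TPM in Setd2f/f, lowest in Setd2D/D replicate 1 and highest in Setd2f/f replicate 1, as for Emcn. The authors' deposited table calls 0 higher (background 1.51%) and 6 lower (background 1.64%), limma called 0, and the median change was -0.40. Vpreb1, which encodes a surrogate light chain of precursor B cells, was at 17.6 and 37.4 TPM in Setd2D/D and 108 and 58.8 TPM in Setd2f/f (authors' deposited FDR 7.28e-09, limma adjusted p = 0.393). Cd79a and Cd79b, the signalling chains of the B cell receptor, averaged 37.4 ± 4.72 and 38.5 ± 14.1 TPM in Setd2D/D and 83.2 ± 38.1 and 65.8 ± 9.24 TPM in Setd2f/f (SD, n = 2 each, limma adjusted p = 0.413 and 0.431). The other 7 did not keep that order and overlapped between genotypes. Igll1, the most abundant of the list, was at 56.5 and 78.7 TPM in Setd2D/D and 145 and 67.7 TPM in Setd2f/f. Pax5, a B lineage factor, was at 18.8 and 14.8 TPM in Setd2D/D and 17.4 and 9.33 TPM in Setd2f/f. Both are among the 6 that the authors' deposited table calls lower, with Pax5 at a log2 change of -0.62 (FDR 0.0058). By limma the change of Pax5 was 0.36 (adjusted p = 0.728), opposite in sign. The part of B lineage transcripts in the level of Emcn was not tested.

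**Figure D5:**
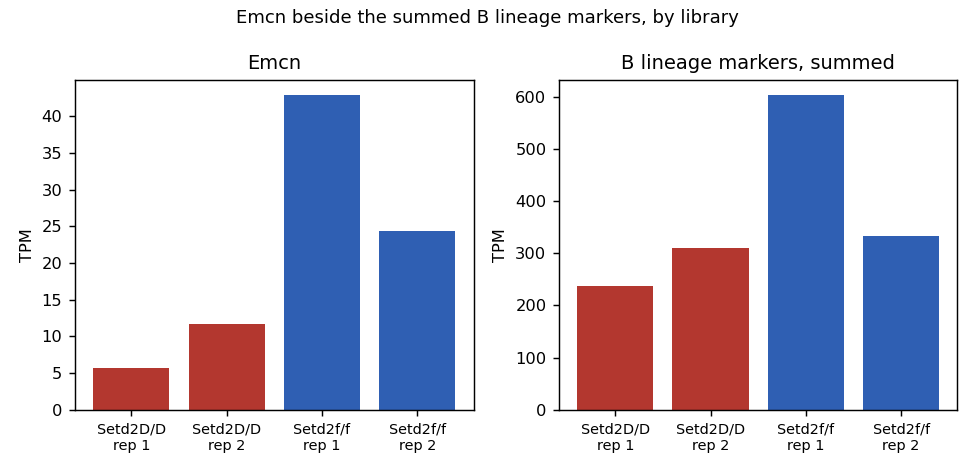
Emcn (left) and the sum of the 12 B lineage markers (right) in TPM, with a bar for each library from 0. Both are lowest in Setd2D/D replicate 1 and highest in Setd2f/f replicate 1; Emcn is 11.7 TPM or less in Setd2D/D and 24.3 TPM or more in Setd2f/f.

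The surface genes used to mark LSK cells and stem cells (14, all tested) had a median change of -0.18, with 0 past limma and 0 higher and 3 lower in the authors' deposited table. Cd34, a sialomucin of progenitors and endothelium, was at 520 and 476 TPM in Setd2D/D and 773 and 747 TPM in Setd2f/f (authors' deposited FDR 0.0461, limma adjusted p = 0.211). Ly6a, given above, was also past that FDR as lower (3.08e-06). Cd48, which is low on stem cells and rises in progenitors, was at 132 and 138 TPM in Setd2D/D and 175 and 187 TPM in Setd2f/f (limma adjusted p = 0.338). Procr, a receptor gene that marks stem cells and endothelium, was at 57.8 and 35.7 TPM in Setd2D/D and 58.2 and 38.7 TPM in Setd2f/f, and Slamf1, the CD150 gene, at 2.98 and 5.26 TPM in Setd2D/D and 2.34 and 4.12 TPM in Setd2f/f. The ranges of Procr and of Slamf1 overlapped between genotypes, unlike those of Tek and Emcn.

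Genes whose pattern over the 4 libraries was most like that of Tek or Emcn were found by Euclidean distance. It was taken between log2(TPM + 1) values centred on their own mean, among 9797 tested genes with a mean of at least 5 TPM. Left out by the letters of their symbols were predicted models, small RNAs, mitochondrial transcripts, and immunoglobulin and T cell receptor segments. Igll1 was left out by the same rule, as was any other gene whose symbol begins with such letters, for example Tra, Trb, Igh or Mir. Nearer genes of any of these kinds would not be seen. The distance describes 4 values per gene and carries no p. Nearest to Tek were Aif1 (distance 0.10), Gria3 (0.13) and Mtus1 (0.14), where the distance of Tek from a flat pattern is 1.39. Aif1, a calcium-binding gene of myeloid cells, was at 9.46 and 8.61 TPM in Setd2D/D and 2.6 and 3.0 TPM in Setd2f/f. Nearest to Emcn were Vpreb1 (0.28), Nkx2-3 (0.30) and P2rx1 (0.32), where the distance of Emcn from a flat pattern is 2.05. Nkx2-3, a homeobox gene, was at 2.54 and 5.01 TPM in Setd2D/D and 21.9 and 14.9 TPM in Setd2f/f, and P2rx1, an ATP-gated channel gene, at 2.43 and 6.70 TPM in Setd2D/D and 24.0 and 16.6 TPM in Setd2f/f.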

How the data were processed

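TPM for 46517 genes in 4 libraries were deposited, as was a table of the authors' own comparison for 23955 genes with a fold change as a ratio, its log2, the mean log2 CPM, an F score and an FDR with its p-value, per the file headers. Per the submitters' processing notes, cutadapt, RSEM, edgeR and the build mm10 were used; edgeR made the comparison, by the name of the authors' deposited table, and what the others did is not given in the sources used here. In 5 rows of the first table and 2 of the second a comma in a gene name had shifted the fields, which were rejoined.

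TPM are not counts, so genes with at least 1 TPM in at least 2 libraries (14755) were tested on log2(TPM + 1). Limma 3.58.1 in R 4.3.3 was used, with genotype as the term and a variance trend on abundance. The 2-sided p-values were adjusted by Benjamini-Hochberg over all genes (threshold 0.05). Some genes passed that filter only through the genotype where they are higher, among them Grb14, Bmpr1a, Ocln, Cyyr1, Fabp4, Stab1 and Bglap. The fit was repeated with a pseudocount of 0.1 or 0.5, without the filter, with a minimum of 5 TPM, under 3 scalings between libraries (trimmed means with 30% and 5% trimmed, median of ratios, quantiles), without the trend, with robust moderation, with the replicate number as a block, and leaving out each library. Coordinates are from GENCODE M21 (GRCm38), matched by 46005 gene identifiers.

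The members and lists were chosen with earlier results of these data known. Named were the 9 members, Setd2, up to 3 genes per list with the smallest limma p and a mean of at least 1 TPM, and the nearest patterns of Tek and Emcn. Other genes named (Kit, Ly6a, Procr, Slamf1, Akt1, Angpt2, Angpt4, Ptprb, Flt1, Flt4, Ctnnb1, Fli1, Lmo2, Mef2c, Adgrl4, Egfl7, Icam2, Cyyr1, Aplnr, Lyve1, Mmrn2, Robo4, Ecscr, Fabp4, Bglap, Itga2b, Igll1, Pax5, Gm17473 and Fpgs) and the pairing of Emcn with B lineage markers were chosen after their values were seen. One listed gene that the rule names is not reported here.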

Additional observations from a re-analysis of the deposited data

How the results depend on the processing

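Under all 14 alternatives limma called 0 of the 9 members, and Tek stayed higher and Tie1, Angpt1 and Emcn lower in Setd2D/D in each. The change of Tek ranged from 1.27 to 1.54, that of Tie1 from -0.70 to -0.44 and that of Emcn from -2.32 to -1.39, with adjusted p-values of at least 0.179, 0.204 and 0.185. The small changes of Pecam1, Esam and Eng kept their sign in 12, 13 and 10 of the 14. Eng turned to 0.0023 with trimmed-mean scaling and 0.0073 with median-of-ratios scaling, and with a library left out Pecam1 ranged from -0.12 to 0.13, Esam from -0.14 to 0.18 and Eng from -0.12 to 0.021. Members with an unadjusted p under 0.05 numbered 3 in the main test and between 1 and 3 when a library was left out: 2 without Setd2D/D replicate 1 (Tek and Emcn), 1 without Setd2f/f replicate 1 (Tek) and 2 without Setd2f/f replicate 2 (Tek and Emcn). The lone library of a genotype was then assumed to vary like the other pair.

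Genes called over the whole table numbered 10, and were 3 with a pseudocount of 0.1, 0 with no filter, 19 without the trend, 0 with the replicate block and 0 whichever library was left out. The replicate numbers do not pair the libraries by the labels, and deviations of same-numbered libraries correlated at only 0.041. With the replicate block 3 members again had an unadjusted p under 0.05. With 1 added to both TPM values, the Setd2D/D minus Setd2f/f difference was -0.12 for Kdr to Tek, against -0.020, and -22.4 for Emcn to Cdh5, against -182.9, since Kdr and Cdh5 lie below the added value. Read depth is not known, so precision near 0 TPM cannot be stated.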
